A study of Mus musculus with 42 samples.

Results

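Quiescence is the resting state in which naive and memory T cells persist until antigen arrives, and it is held by a set of expressed regulators rather than by mere inactivity. FOXO and FOXP proteins, LEF1, TCF1 and KLF factors hold a programme of survival, homing and low metabolism, BTG and TOB proteins recruit deadenylases that shorten messenger RNA tails, and proteins such as PIK3IP1 and GILZ restrain signalling below the T cell receptor. Receptor signalling through PI3K and AKT drives FOXO1 out of the nucleus, and several of these messages are known to fall when T cells are activated. The 10 genes described here are Foxo1, Foxp1, Tcf7, Lef1, Klf3, Btg1, Btg2, Tob1, Tsc22d3 and Pik3ip1. They were taken by gene symbol from the platform annotation, with the transcript cluster of the highest mean where a symbol had several. Of the 10 genes 9 had a row, each with 1 cluster, among 24922 clusters in all; Tcf7, which encodes TCF1, was not matched to a row and is not analysed here. All 9 passed the filter on dim genes. They were above the array median on all 42 arrays, except Tsc22d3 and Pik3ip1, which were so on 41, and none entered through a single high group.

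The arrays measured RNA of splenic CD4+ T cells from NOD mice, a strain prone to autoimmune diabetes, that carry a GFP reporter in the Foxp3 locus. Conventional cells (Tconv) and regulatory cells (Treg) were sorted by flow cytometry, 50000 cells per sample, before (0 h) and 2, 8, 24 and 72 h after KT3, an antibody to the CD3 chains of the T cell receptor. KT3 was injected intravenously into females of 8 weeks (in vivo) or was given at 1.25 µg/ml to splenocytes in culture (in vitro). Each cell type, setting and time had 2 arrays, and in vivo a single array per cell type stands for rat IgG at 24 h. In culture, arrays numbered 1 came from females of 9 weeks and arrays numbered 2 from males of 14 weeks, so that age and sex cannot be told apart from the number. In vivo, 9 of 10 arrays numbered 1 were from singly sorted cells and 10 of 12 numbered 2 from doubly sorted cells. Nothing in the labels says that arrays of a group came from separate animals in vivo, so the spread behind the p-values there may be technical only. The labels give the in vitro Treg gate as GFP negative, while Foxp3 was at 11.30 log2 intensity or more on every Treg array and at most 8.20 on every Tconv array. In these bulk samples a change in which CD4+ cells were present and a change of RNA per cell cannot be told apart.

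Values are log2 intensities. Differences are given as log2 difference ± SE from a limma model of all 42 arrays, with n = 2 arrays per group. A gene was called at a Benjamini-Hochberg adjusted p under 0.05 over the 12425 genes tested. A share printed as background is the share of all tested genes called in the same comparison and direction.

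1 array stood apart, Tconv in vitro 0 h number 1. Its mean correlation with the other arrays over the tested genes was 0.51, against 0.79 for the next lowest, and its interquartile range was 1.64 log2 units against 2.10 for the next narrowest. All 9 genes were lower on it than on number 2 of its group, by 0.64 (Btg1) to 2.01 (Foxo1). The in vitro Tconv differences from 0 h are therefore described with and without it. In all 10 in vivo groups with a pair of arrays, number 1 also had a higher mean over 39 markers of other blood cells (B cells, macrophages and monocytes, neutrophils, erythroid cells, platelets, dendritic, NK and CD8 T cells), by 0.45 to 1.43. Those markers' mean was 6.21 and 5.61 on the Tconv arrays at 0 h and 6.19 and 5.51 at 8 h. On the Treg arrays it was 6.12 and 5.67 at 0 h and 6.82 and 5.65 at 8 h. Klf3, Foxo1 and Tob1 were lower on number 1 in 9 of these 10 groups, by 0.43, 0.21 and 0.22 on average, while Pik3ip1 and Tsc22d3 were higher on it in 8, both by 0.27. The part of these cells in the differences below was not tested. CD4 T cell markers, by contrast, had a mean of 9.71 to 11.39 over all arrays.

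Promoters are shown from 250 bases before to 50 after a RefSeq start, on the mouse build GRCm38.p6. For Pik3ip1 this start lies inside the gene's RefSeq span of chr11:3319241-3342971, not at its beginning. Those of Btg1 and Btg2, which encode related antiproliferative proteins, are shown because they held a searched motif, and that of Pik3ip1 because it had the largest fall. Capitals mark a motif found by searching both strands for TGTTTAC (forkhead), CTTTGAT (TCF/LEF), CCACACCC (KLF) and TGACGTCA (CRE), which do not overlap here. Btg1 lies at chr10:96616751-96617050 on the plus strand, Btg2 at chr1:134079106-134079405 on the minus strand and Pik3ip1 at chr11:3330481-3330780 on the plus strand.
Btg1: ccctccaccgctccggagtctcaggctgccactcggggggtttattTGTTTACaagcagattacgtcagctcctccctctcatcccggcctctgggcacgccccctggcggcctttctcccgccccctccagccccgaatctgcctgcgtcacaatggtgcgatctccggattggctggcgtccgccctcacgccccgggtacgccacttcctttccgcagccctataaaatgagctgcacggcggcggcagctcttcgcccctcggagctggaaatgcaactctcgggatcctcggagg
Btg2: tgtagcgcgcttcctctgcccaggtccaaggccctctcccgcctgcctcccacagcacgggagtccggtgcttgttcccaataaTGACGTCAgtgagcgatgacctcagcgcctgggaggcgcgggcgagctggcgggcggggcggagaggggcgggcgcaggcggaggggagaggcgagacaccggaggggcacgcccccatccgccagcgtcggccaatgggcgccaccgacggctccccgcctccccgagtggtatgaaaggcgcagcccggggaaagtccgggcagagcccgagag
Pik3ip1: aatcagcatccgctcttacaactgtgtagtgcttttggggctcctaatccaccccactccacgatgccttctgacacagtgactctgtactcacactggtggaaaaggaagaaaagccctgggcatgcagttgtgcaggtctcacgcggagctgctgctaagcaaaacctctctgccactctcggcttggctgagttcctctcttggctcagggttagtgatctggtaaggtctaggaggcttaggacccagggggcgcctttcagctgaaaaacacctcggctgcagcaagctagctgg
All 9 genes were found in the RefSeq promoter table, with 16 windows. Only the windows of Btg1 and Btg2 held a motif, forkhead at -204 from the start of Btg1 and CRE at -166 from the start of Btg2. Of all 32851 mouse windows of this length 3.65% held the forkhead motif, 1.79% the CRE, 3.73% the TCF/LEF and 3.56% the KLF motif. The median GC content was 60.8% for the 16 windows and 52.7% for all. A match says only that these letters are there.

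**Figure D1:**
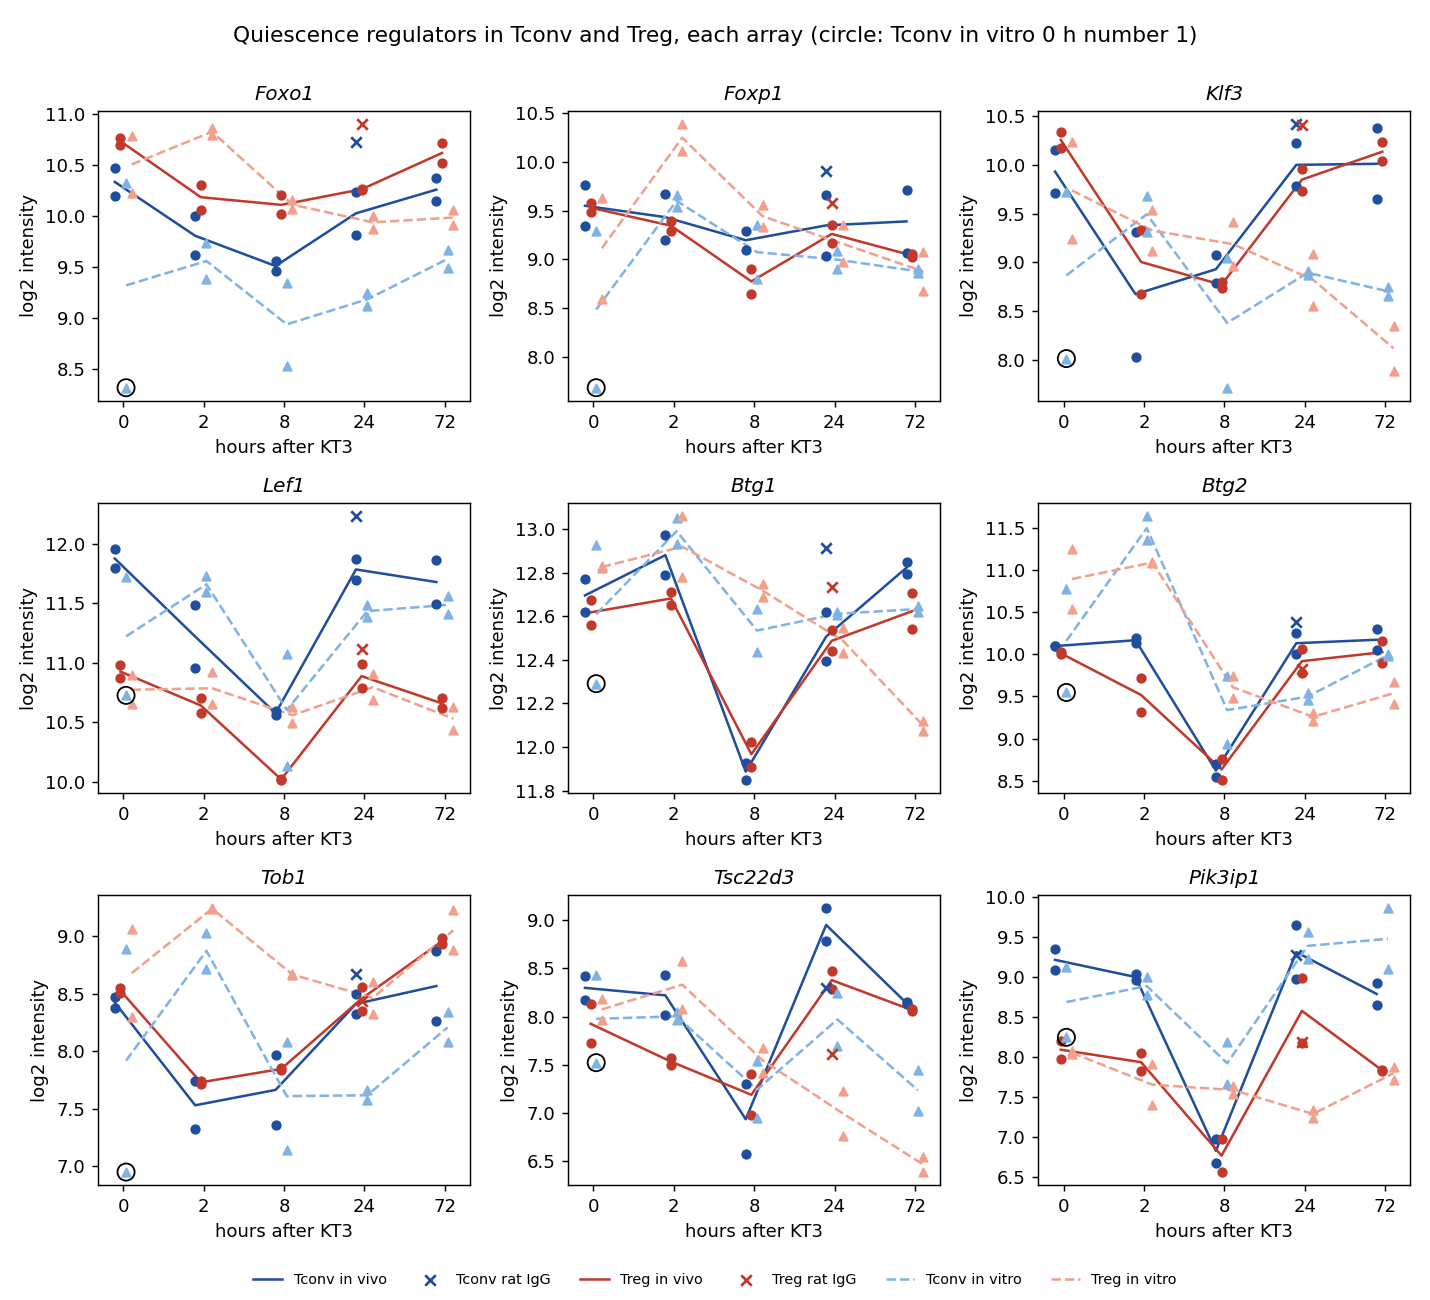
Log2 intensity (y axis) of each of the 9 genes against hours after KT3 (x axis, evenly spaced). Each point is 1 array, lines join group means and crosses are the rat IgG arrays at 24 h. The black circle is Tconv in vitro 0 h number 1. In all 9 panels the in vivo arrays at 8 h lie below those at 0 h of the same cell type.

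In vivo, all 9 genes had lower means at 8 h than at 0 h in both cell types. With the values as deposited, none differed from 0 h by a call at 24 h. In Tconv 5 were called lower at 8 h (Pik3ip1, Btg2, Tsc22d3, Lef1 and Btg1), against a background of 6.54% of genes. In Treg 5 were called lower too (Klf3, Btg2, Pik3ip1, Lef1 and Btg1), against 3.31%. The other differences were below 0 as well, and the median of the 9 was -1.0 in Tconv and -0.76 in Treg, where all tested genes had medians of -0.06 and -0.02. For each of the 9 genes both 8 h arrays lay below both 0 h arrays in each cell type. That held for 34.3% of all tested genes in Tconv and 23.7% in Treg. The direction of all 9 also held under quantile normalization and median centring, but the calls depended on the scaling. Median centring ended the Treg calls of Lef1 (limma adjusted p = 0.0801) and Klf3 (limma adjusted p = 0.0743), which left 8 of the 10 calls, and quantile normalization added Foxo1 and Klf3 in Tconv. With median centring the median over all tested genes in Tconv was 0.10 in place of -0.06, and it turned the called shares from 14.4% higher and 6.54% lower to 16.7% and 3.77%. Quantile normalization gave 10.4% higher and 8.69% lower in Tconv, and 5.4% and 5.0% in Treg against 6.36% and 3.31%.

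Among the transcription factors, Lef1, a partner of beta-catenin that helps set T cell identity, had the clearest course. In Tconv it stood at 11.79 and 11.96 at 0 h, 10.96 and 11.48 at 2 h, 10.56 and 10.59 at 8 h, 11.70 and 11.87 at 24 h and 11.49 and 11.87 at 72 h. In Treg it stood at 10.98 and 10.87 at 0 h, 10.57 and 10.71 at 2 h, 10.02 and 10.03 at 8 h, 10.99 and 10.79 at 24 h and 10.62 and 10.70 at 72 h. The 8 h arrays were the lowest of each course, and Tconv lay above Treg at every time. The fall at 8 h was 1.30 ± 0.26 in Tconv (limma adjusted p = 0.000585, 2.46-fold) and 0.90 ± 0.26 in Treg (limma adjusted p = 0.0244). The Treg call was lost without any 1 of its 4 arrays, at differences of -0.85 to -0.96, and the Tconv call was not.

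Klf3, a repressor of the Krüppel-like family, already had low arrays at 2 h. In Treg it stood at 10.18 and 10.34 at 0 h, 8.68 and 9.33 at 2 h, 8.80 and 8.74 at 8 h, 9.74 and 9.96 at 24 h and 10.04 and 10.23 at 72 h. In Tconv it stood at 9.71 and 10.15 at 0 h, 8.03 and 9.31 at 2 h, 8.79 and 9.07 at 8 h, 9.78 and 10.22 at 24 h and 9.65 and 10.38 at 72 h. Its arrays at 2 h and 8 h lay below those at 0 h in both cell types, but arrays of 1 group were up to 1.28 apart. At 2 h the differences were -1.26 ± 0.46 in Tconv and -1.25 ± 0.46 in Treg, neither of them called. Klf3 was among the genes lower on arrays numbered 1, and with the number as a replicate block it was called at 2 h in Tconv (limma adjusted p = 0.0406, background 0.853%) and in Treg (limma adjusted p = 0.0279, background 1.96%). At 8 h Klf3 fell by 1.49 ± 0.46 in Treg (limma adjusted p = 0.0381), a call lost without any 1 of the 4 arrays, and its difference in Tconv was -1.0 ± 0.46, which was not called. That difference was called with the replicate block (limma adjusted p = 0.0420, background 7.81%).

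Foxo1 and Foxp1 were not called in vivo. Foxo1, the forkhead factor that sustains Il7r and Klf2 in resting T cells, was at 10.20 and 10.48 in Tconv at 0 h and at 9.46 and 9.56 at 8 h. In Treg it was at 10.70 and 10.77 at 0 h and at 10.02 and 10.21 at 8 h. The arrays did not overlap, and the differences were -0.82 ± 0.36 and -0.62 ± 0.36. Foxp1, which opposes Foxo1 at some of its targets and is needed for naive T cell quiescence, had differences of -0.35 ± 0.36 in Tconv and -0.76 ± 0.36 in Treg.

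Of the antiproliferative family, Btg2 and Btg1 were called at 8 h and not at 2 h. Btg2, an early p53 target and a partner of the CCR4-NOT deadenylase, was at 10.10 and 10.09 in Tconv at 0 h, 10.13 and 10.20 at 2 h, 8.70 and 8.55 at 8 h, 10.01 and 10.25 at 24 h and 10.05 and 10.29 at 72 h. In Treg it was at 9.997 and 10.03 at 0 h, 9.32 and 9.72 at 2 h, 8.76 and 8.51 at 8 h, 9.78 and 10.06 at 24 h and 9.89 and 10.16 at 72 h. The 8 h pair lay apart from all other arrays of its course in each cell type. Btg2 fell by 1.47 ± 0.28 in Tconv (limma adjusted p = 0.000435, 2.78-fold) and by 1.38 ± 0.28 in Treg (limma adjusted p = 0.00232, 2.60-fold), and both calls held without any 1 of the arrays compared.

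Btg1, the most abundant signal of the 9 genes with 11.85 to 13.06 over all arrays, moved less. In Tconv it was at 12.77 and 12.62 at 0 h and at 11.93 and 11.85 at 8 h, and in Treg at 12.56 and 12.68 and then at 12.02 and 11.91. No array of another time or treatment in vivo was as low as these 4. It fell by 0.81 ± 0.16 in Tconv (limma adjusted p = 0.000717) and by 0.65 ± 0.16 in Treg (limma adjusted p = 0.0114). The Treg call was lost without 8 h number 1, 0 h number 2 or 8 h number 2, at differences of -0.59 to -0.71.

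Tob1, the third of this family, was not called, though its arrays were already low at 2 h. In Tconv it was at 8.38 and 8.47 at 0 h, 7.32 and 7.74 at 2 h and 7.36 and 7.97 at 8 h, and in Treg at 8.50 and 8.55, 7.74 and 7.72, and 7.84 and 7.85. The 2 h and 8 h arrays were all below the 0 h arrays. The differences were -0.89 ± 0.38 and -0.80 ± 0.38 at 2 h and -0.76 ± 0.38 and -0.68 ± 0.38 at 8 h, in Tconv and Treg, and none was called. By 72 h it stood at 8.93 and 8.98 in Treg, above its 0 h arrays, with a difference of 0.43 ± 0.38 that was not called.

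Of the 9 genes Pik3ip1 had the largest fall in Tconv. It encodes a transmembrane protein that binds the catalytic subunit of PI3K and inhibits it. In Tconv it was at 9.35 and 9.09 at 0 h, 9.04 and 8.96 at 2 h, 6.98 and 6.68 at 8 h, 9.65 and 8.98 at 24 h and 8.66 and 8.92 at 72 h. In Treg it was at 8.21 and 7.98, 8.05 and 7.83, 6.98 and 6.57, 8.98 and 8.17, and 7.83 and 7.84 at the same times. Tconv thus began above Treg, and the 8 h arrays of both cell types lay in 1 range. That range was close to the array median, and on Treg 8 h number 2 Pik3ip1 was not above it. RMA keeps little of the change of dim genes. Whether this limited the falls of Pik3ip1 or their difference between the cell types was not tested. The fall was 2.39 ± 0.29 in Tconv (limma adjusted p = 2.76e-06, 5.23-fold), a call that held without any 1 array and also with all in vivo arrays numbered 1 left out. In Treg it was 1.32 ± 0.29 (limma adjusted p = 0.00432, 2.50-fold), a call lost without 0 h number 1 (-1.21) or 8 h number 2 (-1.12).

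Tsc22d3 encodes GILZ, the glucocorticoid-induced leucine zipper protein, which dampens AP-1 and NF-kappaB. In Tconv it was at 8.42 and 8.17 at 0 h, 8.43 and 8.01 at 2 h, 7.30 and 6.57 at 8 h, 9.12 and 8.78 at 24 h and 8.13 and 8.15 at 72 h. In Treg it was at 8.13 and 7.72, 7.50 and 7.57, 7.40 and 6.98, 8.47 and 8.28, and 8.08 and 8.06. Its 24 h arrays lay above the 0 h arrays in both cell types. It fell by 1.36 ± 0.29 at 8 h in Tconv (limma adjusted p = 0.00109, 2.57-fold), and its difference in Treg was -0.74 ± 0.29, not called.

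**Figure D2:**
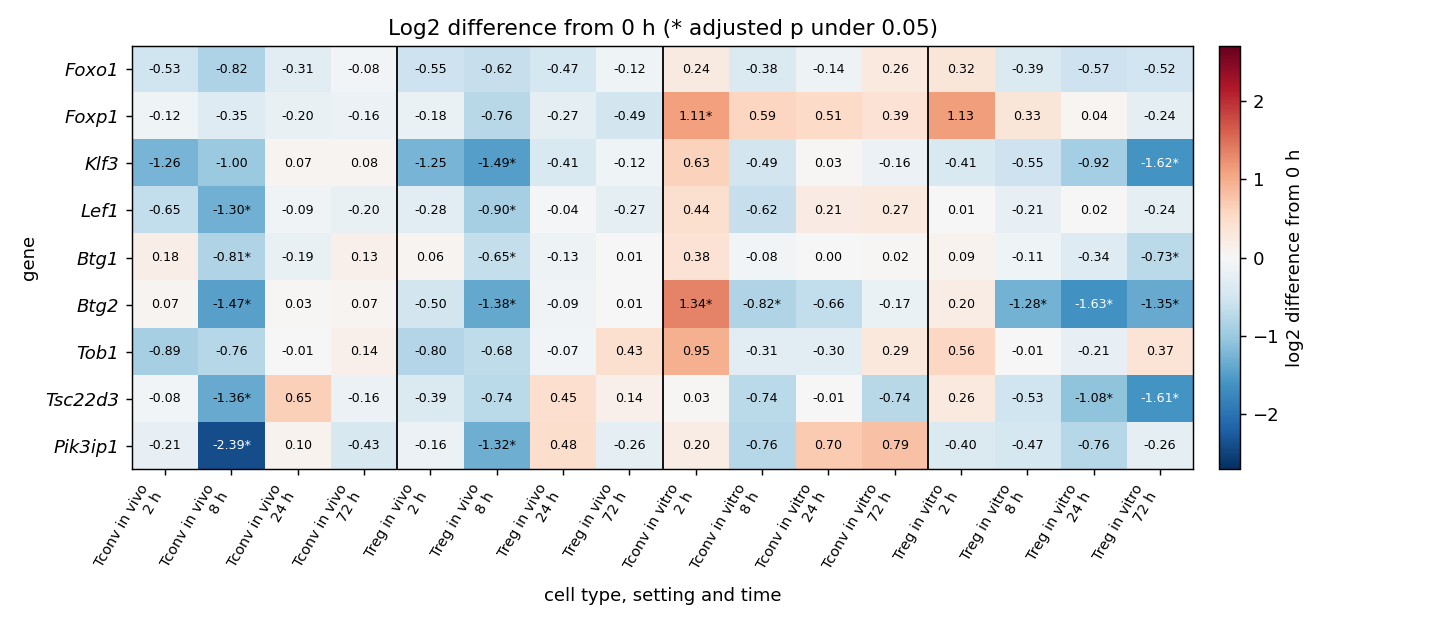
Log2 difference from 0 h (colour and number) of each gene (rows) in each cell type, setting and time (columns), all arrays included; an asterisk marks an adjusted p under 0.05. All 18 values at 8 h in vivo are below 0 and 10 are called, while the in vitro values are of both signs.

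At the other times in vivo the limma model of all arrays, with the values as deposited, called none of the 9 genes. At 2 h 5 of 18 tests had an unadjusted p under 0.05, and the background of lower calls was 0.467% in Tconv and 1.42% in Treg. At 24 and 72 h 1 of 36 tests had one, and the background was 0.129% and 0.0241% in Tconv and 0.0322% and 0.0% in Treg. The shared estimate of spread included the in vitro arrays. With the in vivo arrays fitted apart, 3 genes were called lower in Tconv at 2 h (Lef1, Klf3 and Tob1; background 3.94%) and 2 in Treg (Klf3 and Tob1; 4.49%). At 8 h that fit called 8 in Tconv (10.5%) and all 9 in Treg (6.81%), and still none at 24 or 72 h. Quantile normalization of all arrays called Btg1 lower than at 0 h in Tconv at 24 h (-0.55, limma adjusted p = 0.0240). It also called Klf3 lower in Treg at 2 h (-1.43, limma adjusted p = 0.0247). With 1 array per in vivo group, all numbered 2, Pik3ip1 in Tconv was the 1 call left of the 10, and the medians at 8 h were -1.08 and -0.84.

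The return between 8 h and 24 h was itself called for all 5 genes called lower at 8 h in Tconv. Of those called lower in Treg it was called for Btg2 and Pik3ip1, and not for Klf3, Lef1 and Btg1. In Tconv 5 rose from 8 h to 24 h, against a background of 8.46%. They were Pik3ip1 (2.48 ± 0.29, limma adjusted p = 1.10e-06), Tsc22d3 (2.02 ± 0.29), Btg2 (1.51 ± 0.28), Lef1 (1.21 ± 0.26) and Btg1 (0.62 ± 0.16). In Treg 3 rose, against 2.63%: Pik3ip1 (1.81 ± 0.29, limma adjusted p = 0.000577), Btg2 (1.28 ± 0.28) and Tsc22d3 (1.19 ± 0.29). Both 24 h arrays lay above both 8 h arrays for 8 of the 9 genes in Tconv and all 9 in Treg, where 30.8% and 22.5% of all tested genes did so. The call of Btg1 in Tconv was lost without 8 h or 24 h number 2. The Treg calls of Btg2 and Tsc22d3 were lost without 8 h number 2 and 1 of the 24 h arrays (number 2 and number 1). The 8 h arrays serve both the fall and the return, so the 2 are not independent of each other.

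**Figure D3:**
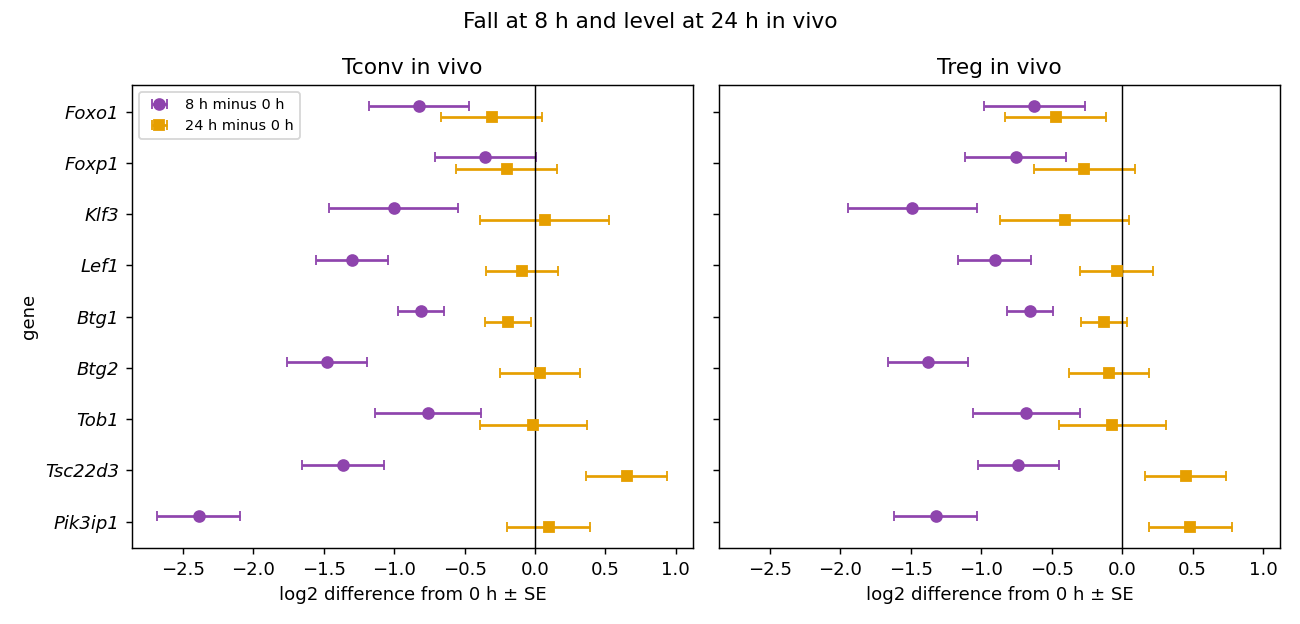
Log2 difference from 0 h ± SE (x axis) of each gene (y axis) at 8 h (circles) and 24 h (squares) after KT3 in vivo, in Tconv (left) and Treg (right). At 8 h the points reach -2.39 (Pik3ip1 in Tconv), and at 24 h they lie between -0.47 and 0.65.

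The lone IgG arrays at 24 h serve as the control for an injected antibody. In Tconv the IgG array read 10.38 for Btg2, 12.23 for Lef1, 9.27 for Pik3ip1 and 8.30 for Tsc22d3, and in Treg 9.83, 11.12, 8.19 and 7.61. Neither KT3 against IgG at 24 h nor IgG against 0 h gave a call by limma for any of the 9 genes, and 1 of 36 tests had an unadjusted p under 0.05. The background over these 4 comparisons was 0.437%. Both IgG arrays carry number 2, and their spread was taken from the other groups.

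Before KT3 in vivo, Lef1 and Pik3ip1 were lower in Treg than in Tconv, and the other 7 were not called. The Treg arrays were at 10.98 and 10.87 for Lef1 against 11.79 and 11.96 in Tconv, and at 8.21 and 7.98 against 9.35 and 9.09 for Pik3ip1. The arrays of the 2 cell types did not overlap for these genes, nor for any other of the 9 except Foxp1 and Btg1. The share of all genes without overlap is not given here. For Lef1 and Pik3ip1 the differences, Treg minus Tconv, were -0.95 ± 0.26 (limma adjusted p = 0.0390) and -1.12 ± 0.29 (limma adjusted p = 0.0293). The background was 0.515%, and each call was lost without any 1 of the 4 arrays and with median centring. Whether the falls differed between the cell types was tested directly. Over the 8 response differences limma called none of 72 tests, with 10 at an unadjusted p under 0.05, of which 1 was in vivo, and the background was 0.43%. That 1 test was Pik3ip1 at 8 h, whose response was 1.06 ± 0.42 higher in Treg than in Tconv (limma adjusted p = 0.923). Its 8 h arrays were close to the array median in both cell types. Without Tconv in vitro 0 h number 2, the array that stood apart is the only one of its group. That fit added calls, but their share over all genes is not given here. They are not read as a result about these genes.

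In vitro, Btg2, Tsc22d3, Btg1 and Klf3 were lower in Treg at 72 h than at 0 h, and Btg2 was lower from 8 h on. Btg2 was at 10.53 and 11.25 at 0 h, 11.10 and 11.07 at 2 h, 9.48 and 9.74 at 8 h, 9.30 and 9.21 at 24 h and 9.41 and 9.67 at 72 h. All arrays from 8 h on lay below both 0 h arrays. It fell by 1.28 ± 0.28 at 8 h (limma adjusted p = 0.00578, the only call among the 9 genes, background 1.09%), by 1.63 ± 0.28 at 24 h (limma adjusted p = 0.000712) and by 1.35 ± 0.28 at 72 h (limma adjusted p = 0.00194). The 24 h call held without any 1 array, the 8 h call was lost without 8 h number 1 or 0 h number 2 (-1.15 and -0.92), and the 72 h call without 72 h number 1 (-1.22).

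Tsc22d3 in cultured Treg was at 8.18 and 7.97 at 0 h, 8.58 and 8.08 at 2 h, 7.42 and 7.68 at 8 h, 7.23 and 6.76 at 24 h and 6.54 and 6.39 at 72 h. The group means thus went down from 2 h on, and the 72 h arrays were the lowest. Both 72 h values were close to the array median, and on number 2 Tsc22d3 was not above it. Whether this limited the fall was not tested. It fell by 1.08 ± 0.29 at 24 h (limma adjusted p = 0.0249), where it and Btg2 were the 2 calls against a background of 0.934%, and by 1.61 ± 0.29 at 72 h (limma adjusted p = 0.000344, 3.05-fold). The 72 h call held without any 1 array. The 24 h call was lost without 0 h number 1 or either 24 h array (-0.84 to -1.32).

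At 72 h 4 of the 9 genes were called lower in cultured Treg, against 1.77% of all genes. Beside Btg2 and Tsc22d3 they were Klf3 and Btg1. Klf3 went from 9.24 and 10.23 at 0 h to 7.89 and 8.35 (-1.62 ± 0.46, limma adjusted p = 0.0228), and the call was lost without 72 h number 1 (-1.39) or 0 h number 2 (-1.13). Btg1 went from 12.82 and 12.83 to 12.12 and 12.07 (-0.73 ± 0.16, limma adjusted p = 0.00379), with both 72 h arrays the lowest of its course. The in vitro arrays fitted apart kept the calls of Btg2 at 24 h and of Btg2 and Tsc22d3 at 72 h, and Btg1 then missed the threshold (limma adjusted p = 0.0510). With all arrays and the values as deposited, Lef1, Pik3ip1, Foxo1 and Tob1 were not called at any time in cultured Treg. Quantile normalization called Pik3ip1 lower at 24 h (-0.93, limma adjusted p = 0.0147). Without the 3 narrowest in vitro arrays Foxo1 was at -0.85 at 24 h and -0.80 at 72 h. Lef1 stayed between 10.43 and 10.92 on all 10 arrays, and Pik3ip1 ranged from 7.25 to 8.07. At 2 h Foxp1 was at 10.11 and 10.39 against 8.59 and 9.63 at 0 h, a difference of 1.13 ± 0.36 that was not called. With the replicate block it was called (limma adjusted p = 0.0255). Without the block no gene of the 9 was called at 2 h, where 4.02% of all genes were higher.

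The values of cultured Tconv depend on the array that stood apart. With all arrays, Btg2 (1.34 ± 0.28) and Foxp1 (1.11 ± 0.36) were higher at 2 h, against a background of 19.5%, and Btg2 was lower at 8 h (-0.82 ± 0.28, limma adjusted p = 0.0433), against 3.22%. At 24 and 72 h none of the 9 was called, where 7.48% and 0.901% of genes were lower. The 8 h call of Btg2 was lost without 8 h number 1 (-0.41) or 0 h number 2 (-0.21), with median centring (-0.70), with no filter on dim genes, with an intensity trend and with the in vitro arrays fitted apart. Without 0 h number 1, no gene was called at 2 h, and the differences of Btg2 and Foxp1 were 0.72 and 0.31. The other 7 genes were between 0.03 and 0.95 at 2 h with all arrays and between -0.76 and 0.06 without that one. At 8 h 6 of the 9 were then called lower, against 5.77% of genes: Btg2 (-1.43 ± 0.27), Foxo1 (-1.38 ± 0.26), Tob1 (-1.28 ± 0.32), Pik3ip1 (-1.20 ± 0.33), Tsc22d3 (-1.19 ± 0.31) and Lef1 (-1.11 ± 0.26). With all arrays the last 5 of these had stood at -0.38, -0.31, -0.76, -0.74 and -0.62, none called. Klf3, Btg1 and Foxp1 went from -0.49, -0.08 and 0.59 to -1.34, -0.39 and -0.21, also not called. At 24 h 3 were called lower, Btg2 (-1.27 ± 0.27), Tob1 (-1.27 ± 0.32) and Foxo1 (-1.14 ± 0.26), against 0.364%, and with all arrays these were at -0.66, -0.30 and -0.14. The other 6 were between -0.01 and 0.70 at 24 h with all arrays and between -0.83 and 0.26 without that one. At 72 h none was called either way, and the 9 went from a range of -0.74 (Tsc22d3) to 0.79 (Pik3ip1) to one of -1.20 to 0.35, with the same genes at its ends. In the fit without it 0 h is a single array, number 2, assumed to vary like the other groups. The 8 h pair there still held 8 h number 1, the array with the second lowest mean correlation (0.79). All 9 genes were lower on it than on 8 h number 2, with differences of -0.20 (Btg1) to -1.33 (Klf3). The 8 h values above depend on that array too. With the 3 narrowest in vitro arrays left out, 8 h number 1 among them, Foxo1 at 8 h was at -0.98. Lef1, Tob1, Tsc22d3 and Pik3ip1 were not called at 8 h in that fit, which has 1 array at 0 h and 1 at 8 h in cultured Tconv.

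The 0 h pair lay far apart for these genes. Btg2 in cultured Tconv was at 9.55 and 10.77 at 0 h, 11.35 and 11.63 at 2 h, 8.93 and 9.74 at 8 h, 9.46 and 9.53 at 24 h and 9.98 and 9.9994 at 72 h, so that its 2 h arrays lay above both 0 h arrays. Foxo1 was at 8.32 and 10.33 at 0 h and then at 8.54 and 9.35 at 8 h, 9.13 and 9.25 at 24 h and 9.67 and 9.50 at 72 h. Pik3ip1 was at 8.25 and 9.13 at 0 h, 7.66 and 8.19 at 8 h and 9.56 and 9.22 at 24 h. All later Foxo1 arrays lay between its 0 h pair, and the Pik3ip1 arrays at 8 h lay below those at 24 h. Pik3ip1 rose by 1.47 ± 0.29 from 8 h to 24 h (limma adjusted p = 0.00422, background 3.63%), a comparison free of the 0 h arrays, but the call was lost without number 1 at 8 h (1.21) or at 24 h (1.30). In cultured Treg no gene was called between 8 h and 24 h, where limma called 0.0% of all genes.

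**Figure D4:**
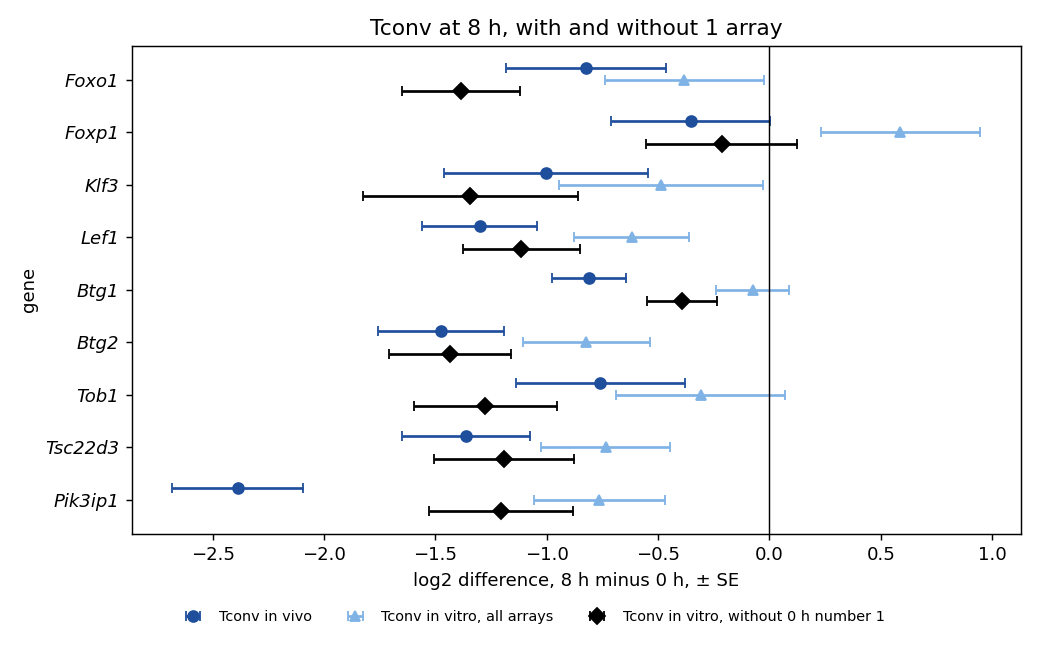
Log2 difference at 8 h from 0 h ± SE (x axis) of each gene (y axis) in Tconv, in vivo (circles), in vitro with all arrays (triangles) and in vitro without 0 h number 1 (diamonds). Foxo1 goes from -0.38 to -1.38 and Foxp1 from 0.59 to -0.21 when the array is left out.

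At 0 h in vitro Foxo1 was called higher in Treg (10.23 and 10.79) than in Tconv (8.32 and 10.33), by 1.18 ± 0.36 (limma adjusted p = 0.0390), against a background of 8.68%. The arrays overlapped, and without Tconv number 1 the difference was 0.18 and not called.

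The in vitro and in vivo responses were compared within each cell type by their difference. Tob1 in Tconv at 2 h was higher in vitro than in vivo (1.85 ± 0.54, limma adjusted p = 0.0459, background 4.22%), having gone from 6.95 and 8.88 to 8.71 and 9.03 in culture and from 8.38 and 8.47 to 7.32 and 7.74 in mice. The call was lost without any 1 of 7 of the 8 arrays, at 0.88 (without the array that stood apart) to 2.06, and held without in vitro 0 h number 2 (2.82). It was also lost with median centring (limma adjusted p = 0.0503) and with no filter on dim genes (limma adjusted p = 0.0618). Tsc22d3 in Treg at 72 h was lower in vitro than in vivo (-1.75 ± 0.41, limma adjusted p = 0.0242, background 0.233%), at 6.54 and 6.39 against 8.08 and 8.06. That call was lost without any 1 of 7 of the 8 arrays, at -1.55 to -1.96, and held without in vitro 0 h number 2 (-1.86), and was lost with median centring too (limma adjusted p = 0.0605). The other 6 comparisons gave no call among the 9 genes, with a background of 0.96%. Over all 8 comparisons 20 of 72 tests had an unadjusted p under 0.05. With the replicate block 7 were called, and the share of all genes called in that fit is not given here. These were the 2 above, Klf3 and Btg2 in Tconv at 2 h and Pik3ip1 in Tconv at 8 h. The others were Btg2 in Treg at 24 and 72 h, at -1.54 and -1.37. These Btg2 differences were also called with quantile normalization, at -1.72 and -1.52. The added Tconv differences of Klf3, Btg2 and Pik3ip1 were 1.89, 1.27 and 1.62 with all arrays. Without the array that stood apart, in the model with no block, they were 1.03, 0.65 and 1.18.

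The genes did not move as 1 block. Over the 20 group means of the time courses, 33 of the 36 gene pairs correlated above 0, with a median r of 0.44. The closest pairs were Lef1 with Pik3ip1 (0.89), Btg1 with Btg2 (0.82) and Klf3 with Tsc22d3 (0.73), and the farthest was Foxo1 with Pik3ip1 (-0.21). These means share arrays and are given as a description. Among all tested genes the course most like that of Foxo1 was Pik3r1, a PI3K regulatory subunit (r = 0.94), followed by Vamp1 and Fli1 (0.93 and 0.92). Lef1 was most like Tanc1 (0.95), Scml4 and Als2cl, and Pik3ip1 most like Rnf122 (0.91), Scml4 and Limd2. Btg2 was most like Slc49a4 (0.90), Saraf and Frat1, Btg1 most like Slc30a1 (0.87), S1pr1 and Sun2, and Tob1 most like Ip6k2 (0.91), Rps6ka5 and Bnip3l. For Klf3 these were Dipk1a (0.89), Spn and Axin2, for Foxp1 Specc1l (0.88), Kbtbd2 and Maco1, and for Tsc22d3 Klf11 (0.85), Rasgrp2 and Cirbp.

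Other genes of the same pathways were read at 8 h in vivo, where the background was 6.54% lower and 14.4% higher in Tconv and 3.31% lower and 6.36% higher in Treg, with medians of -0.06 and -0.02. Of 17 tested FOXO targets and homing genes 8 fell and 1 rose in Tconv and 6 fell and 1 rose in Treg, with medians of -0.70 and -0.69; those that fell were 47.1% and 35.3% of the list. The largest falls in Tconv were Il7r, the interleukin-7 receptor (-4.07 ± 0.52), Txnip, a brake on glucose uptake (-2.79 ± 0.34), and S1pr1, which guides exit from lymphoid organs (-2.79 ± 0.41). In Treg they were Sesn1 (-2.04 ± 0.47), S1pr1 (-1.91 ± 0.41) and Txnip (-1.59 ± 0.34). Of 28 other quiescence factors 7 fell and 2 rose in Tconv and 5 fell and none rose in Treg, with medians of -0.43 and -0.40 and 25.0% and 17.9% of the list lower. The cell cycle inhibitor Cdkn1b, also counted among the FOXO targets, fell by 1.53 ± 0.35 and 1.30 ± 0.35, and the diacylglycerol kinase Dgka by 1.47 ± 0.30 and 1.45 ± 0.30. Cblb, a ubiquitin ligase that limits T cell activation, rose by 1.42 ± 0.32 in Tconv, and Foxo4 fell by 0.94 ± 0.19 in Treg. The lists here and below were chosen with earlier results of these data known, so their shares are a description and not a test.

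Counts were smaller among the partners of the described proteins, and several were near the background of the same comparison. Of 15 CCR4-NOT and poly(A) genes 1 rose in Tconv, Cnot9 (0.92 ± 0.26), and none was called in Treg, where Cnot6l had the largest difference (-0.62 ± 0.48, limma adjusted p = 0.565). That is 6.67% of the list higher in Tconv, below the 14.4% of all genes, with medians of 0.25 and 0.03. Of 18 PI3K and AKT genes 4 fell and 2 rose in Tconv, with Sgk1 at -1.27 ± 0.28 and the PI3K gamma subunits Pik3cg and Pik3r5 at -1.24 ± 0.28 and -1.23 ± 0.20. In Treg 1 fell (Pik3r5, -0.71 ± 0.20) and 1 rose (Akt2, 0.75 ± 0.18). The shares lower were 22.2% and 5.56%, and the medians -0.24 and -0.16. Of 22 partners of TCF and LEF 2 fell (Tox and Axin2, -1.26 ± 0.23 and -0.87 ± 0.27) and 1 rose (Myb, 1.35 ± 0.30) in Tconv. In Treg 2 fell, Axin2, a feedback target of the pathway (-1.35 ± 0.27), and Bcl9l (-0.61 ± 0.17). The 2 of 22 are 9.09%, near the 6.54% of all genes in Tconv, the 1 that rose is 4.55% against 14.4%, and the medians were -0.21 and -0.08. Of 14 glucocorticoid responsive genes, read beside Tsc22d3, 3 fell (Il7r, Txnip and Sgk1, all counted in another list too) and 2 rose in Tconv, and in Treg 1 fell (Txnip) and 1 rose (Errfi1, 0.92 ± 0.22). The shares lower were 21.4% and 7.14% and those higher 14.3% and 7.14%, with medians of 0.0048 and 0.23. Of 12 activation genes 7 rose in Tconv and 5 in Treg and none fell, 58.3% and 41.7% of the list, with Il2ra at 3.98 ± 0.30 in Tconv and Tnfrsf9 at 2.94 ± 0.27 in Treg.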

How the data were processed

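RNA was measured on 42 arrays in 22 groups set by the labels, with 2 arrays per group and 1 per IgG group. The intensity of each transcript cluster was used as deposited by the authors, on a linear scale, processed with RMA in GenePattern per the series design text and with Affymetrix Power Tools and RMA per the submitters' processing notes. Versions are not stated in those sources. RMA keeps little of the change of dim genes. Symbols came from a platform gene table (1 symbol for 21425 of 24922 clusters), and the 12425 genes whose value exceeded the median of its array in 2 or more arrays were tested. Log2 values were fitted with limma (3.58.1, R 4.3.3) as group means over all arrays (20 residual and 5.01 prior degrees of freedom), two-sided, with Benjamini-Hochberg adjustment over all tested genes in each of 42 comparisons. The fit was tested on simulated data. The number of arrays limits the precision. The members and gene lists were chosen with earlier results of these data known. All members are named; of each list, the 3 called genes that changed most, or the single largest difference if no gene was called; and the 3 genes most correlated with each member. Alternatives were other scaling, filters, an offset, a replicate block, separate fits and single arrays left out; leaving out the in vivo arrays numbered 1 or the 3 narrowest in vitro arrays was chosen after seeing the data. Tables were handled with Python 3.11.15 and pandas, figures with matplotlib.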

Additional observations from a re-analysis of the deposited data

Results flagged for a closer look

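The response of Tob1 in Tconv at 2 h differed between the settings by the test of the difference, at 1.85 (in vitro minus in vivo). The response of Tsc22d3 in Treg at 72 h did so as well, at -1.75. Without single arrays of the groups compared, the Tob1 difference was 0.88 to 2.82 and was called in 1 of those 8 fits; the 0.88 was without Tconv in vitro 0 h number 1. The Tsc22d3 difference was -1.55 to -1.96 and was called in 1 of 8 as well. Neither was called with median centring.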

How the results depend on the processing

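Of the 72 tests against 0 h in each setting, 10 were called in vivo and 10 in vitro. These equal counts stand against unlike backgrounds. By comparison, the share of all tested genes called either way was 0.0241% to 21% in vivo and 5.61% to 26.8% in vitro. The counts below show how calls moved. The shares of all genes in those fits are not given beside them, so they are not read as results about these genes. In vivo the count was 22 with the settings fitted apart, 25 without the 3 narrowest in vitro arrays, 1 without the arrays numbered 1 (1 array per group then remained) and 6 to 11 without single arrays, the lowest without Treg 8 h number 2. In vitro it was 16 with quantile normalization, 4 with the settings fitted apart or the in vivo arrays numbered 1 left out, 18 without the 3 narrowest arrays and 8 to 25 without single arrays, with 17 and 25 without Tconv 0 h number 1 and number 2. Without those 3 arrays Foxo1 in Tconv at 2 h in vitro reversed to -0.76 (limma adjusted p = 0.0227). At 0 h 3 calls became 5 with quantile normalization, 1 with median centring, 0 without the in vivo arrays numbered 1 and 1 to 8 without single arrays. The Treg and Tconv response differences had 0 calls, and 0 to 23 without single arrays. The 2 differences between settings became 5 with quantile normalization, 0 with median centring, 1 with no filter on dim genes, 0 without the in vivo arrays numbered 1, 5 without the 3 narrowest arrays and 0 to 27 without single arrays. The 9 calls between 8 h and 24 h became 14 with the settings fitted apart, 3 without the in vivo arrays numbered 1, 15 without the 3 narrowest arrays and 7 to 11 without single arrays. KT3 against IgG had 0 calls, and 1 with quantile normalization (Btg1 in Tconv). The cause of these changes was not tested.

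With the number as a replicate block in each setting the counts were 13 in vivo, 15 in vitro, 4 at 0 h and 7 for the differences between settings. It added 17 calls over all comparisons and ended none. The number goes with age and sex in vitro and largely with the sort in vivo, but the labels name no shared animal, litter or day, and not every pair of groups moved together. Deviations of same-numbered arrays correlated at -0.17 to 0.78 between in vivo groups (median 0.30, 32 of 45 pairs over 0.1) and -0.45 to 0.71 in vitro (median 0.22, 28 of 45), so the number was not taken to pair the samples and the block was kept as an alternative.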
